A study of Mus musculus with 12 samples.

Results

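The 9 genes Csf1r, Aif1, Cx3cr1, P2ry12, C1qa, C1qb, C1qc, Trem2 and Tyrobp, which are used as markers of microglia, were followed in whole brains of mouse embryos. They were chosen by symbol from the gene table, and all 9 were found among its 13770 gene models. The study asked what drinking by the dam during pregnancy does to RNA in the embryonic brain. Libraries were made from 12 C57BL/6J brains at embryonic day 18. The brains with prenatal alcohol exposure (PAE, n = 6) came from dams offered a drink of 10% ethanol sweetened with 0.066% saccharin, and the controls (SAC, n = 6) from dams offered the 0.066% saccharin solution alone, both weight per volume and for 4 h each day. Each group held 3 females and 3 males. The names of the brains share 3 prefixes among PAE and 2 among SAC. What a prefix marks is not stated in the labels or the methods, and p-values therefore cover the spread among these brains and nothing beyond it.

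Microglia are the macrophages that live within the brain tissue. They descend from progenitors of the yolk sac and settle in the brain before most neurons mature. They clear dying cells and take part in the removal of synapses, for which the complement protein C1q is one of the tags. Related macrophages lie at the borders of the brain, in the meninges and along vessels, and share many of these genes with microglia. P2ry12 is the member most restricted to microglia. In RNA from a whole brain, fewer cells of a type and less RNA per cell cannot be told apart.

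The values are FPKM, which scale fragments to transcript length and to the size of the library, so levels of different genes are compared per length. The 12 gene columns summed to 218026 to 232863 FPKM, and 12025 to 12459 genes reached 1 FPKM. Neuron markers were abundant in every brain, with a sum of 1250.4 to 1496 FPKM in PAE and 1356 to 1476 FPKM in SAC. One library stood apart in the genes described here, that of the PAE female ES27-4. A pair of others stood apart from their groups in Hox genes, which mark hindbrain and spinal cord. The PAE female ES19-4 had a summed Hox level of 64.8 FPKM, where the other 5 PAE brains were close to 0, and SAC12-6 had 0.464 FPKM, the lowest SAC value. Of 8 forebrain markers, 6 were higher in PAE at an adjusted p under 0.05 by limma, where 9.56% of all genes were called. With the mean Hox level of a brain as a covariate, 0.0% of genes were called, these markers included. Hox level largely went with treatment, as the SAC brains other than SAC12-6 had 25.7 to 72.2 FPKM. That fit cannot separate Hox level from treatment, and nothing is drawn from its lack of calls.

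Genes averaging 1 FPKM or more over the 12 brains were tested with limma on log2(FPKM + 1), and p-values were adjusted over all genes tested by the Benjamini-Hochberg method. A difference is PAE minus SAC on that scale, which understates the change of low genes. Csf1r, Cx3cr1, P2ry12, C1qa, C1qb, C1qc and Tyrobp passed the minimum. Aif1 and Trem2 did not, and were tested in a fit with a minimum of 0.1 FPKM. The table itself holds only genes that average 0.5 FPKM or more in 1 or more of the 4 groups of sex and treatment. Trem2 reached this in male PAE brains alone, with 0.562 FPKM, against 0.411 FPKM in male SAC brains, 0.497 FPKM in female PAE brains and 0.463 FPKM in female SAC brains. A gene kept through its PAE level alone is favoured to be higher in PAE, so the differences of Trem2 are given as values and support nothing. In the comparison of PAE with SAC, 0 of the 7 members were called at an adjusted p under 0.05, and 0 had an unadjusted p under 0.05. An exact permutation test of each gene over every assignment of 6 and 6 brains called no member, and it called 0.0% of all genes. Of all 12346 genes tested, limma called 9.56%, and 28.5% had an unadjusted p under 0.05. This share depended on single libraries. The 1180 genes called became 2379 (19.3%) without ES19-4 and 131 (1.06%) without SAC26-8, and leaving out any brain except ES23-7, SAC12-6 or SAC26-5 moved the number by over 1.5 times. The study used a threshold of a 1.5-fold change with an unadjusted p under 0.05. With the fold taken on log2(FPKM + 1) and the p from limma, 0.996% of genes and 0 members passed it. In the fit with the lower minimum, 8.66% of 13770 genes and neither Aif1 nor Trem2 were called. The median difference of the 7 members was 0.015, and that of all genes tested was 0.0052. A p that misses the threshold does not show that levels were the same, so the interval of each difference is given below.

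**Figure D1:**
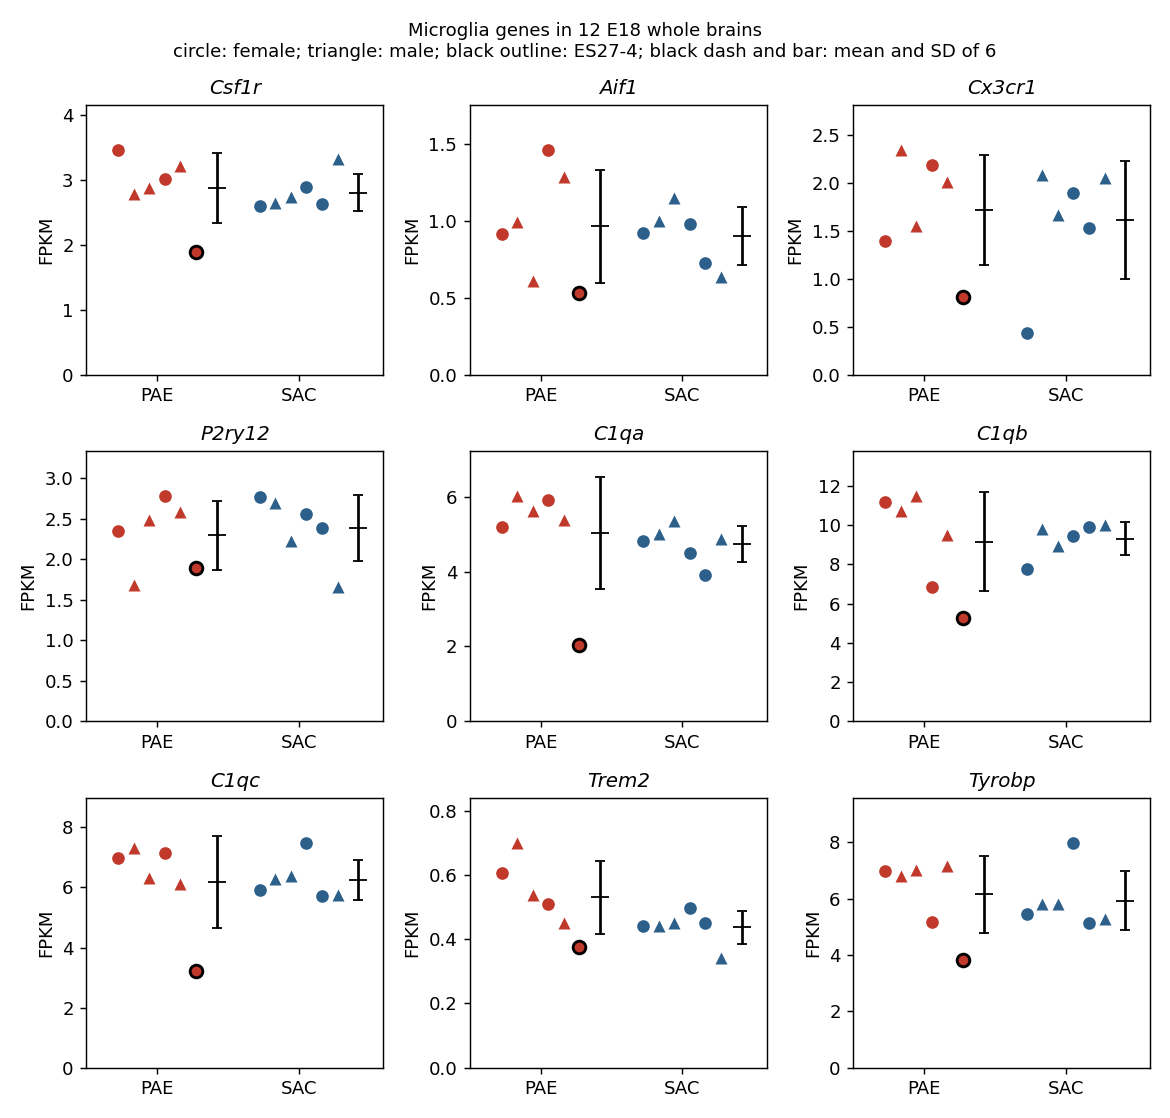
FPKM of each of the 9 genes (vertical axis, from 0) in the 6 PAE brains and the 6 SAC brains, with females as circles and males as triangles, and the mean and SD of each group as a dash and bar. The groups overlap for every gene, and the outlined brain ES27-4 is the lowest of 12 for Csf1r, Aif1, C1qa, C1qb, C1qc and Tyrobp.

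CSF1R is the receptor for CSF1 and IL-34, on which microglia depend for survival. Csf1r was at 1.88, 2.94 and 3.46 FPKM in PAE brains and at 2.59, 2.69 and 3.33 FPKM in SAC brains (lowest, median and highest of 6). Its SAC range lay within its PAE range. The fitted difference was 0.015 ± 0.094 (SE), with a 95% interval of -0.19 to 0.22 and an adjusted p of 0.936 by limma. Csf1r had the lowest variation over brains of the 9 genes, with a coefficient of variation of 14.6%. Its ligands did not pass the test either. Csf1 averaged 1.78 ± 0.33 FPKM in PAE and 1.88 ± 0.39 FPKM in SAC (SD, n = 6 each; adjusted p = 0.792, limma). Il34 averaged 0.593 ± 0.269 FPKM in PAE and 0.803 ± 0.171 FPKM in SAC (SD, n = 6 each; adjusted p = 0.268 with the lower minimum, limma).

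CX3CR1 is the receptor for fractalkine, which neurons make, and P2RY12 is an ADP receptor that steers microglial processes. Cx3cr1 was at 0.810, 1.78 and 2.35 FPKM in PAE brains and at 0.435, 1.78 and 2.08 FPKM in SAC brains. The medians were nearly equal. Its lowest PAE brain was ES27-4, with the next at 1.39 FPKM. Its lowest SAC brain was the female SAC12-5, which was further from the rest, with the next at 1.53 FPKM. Its difference was 0.07 ± 0.19 (SE; 95% interval -0.35 to 0.49, adjusted p = 0.842 by limma), the widest interval of the 9, and its coefficient of variation of 34.3% was the highest. Its ligand Cx3cl1 averaged 6.38 ± 2.30 FPKM in PAE and 9.49 ± 3.72 FPKM in SAC (SD, n = 6 each; adjusted p = 0.414, limma). P2ry12 was at 1.68, 2.42 and 2.78 FPKM in PAE brains and at 1.66, 2.47 and 2.77 FPKM in SAC brains. The lowest, median and highest values of P2ry12 were nearly the same in both groups. Its difference was -0.04 ± 0.10 (SE; 95% interval -0.26 to 0.18, adjusted p = 0.830 by limma). The Cx3cr1 locus on chromosome 9 overlaps 9 other annotated genes, and that of P2ry12 overlaps Med12l on the opposite strand. That of Csf1r overlaps Hmgxb3, also on the opposite strand. The libraries came from a stranded kit, but the methods do not say whether fragments were assigned by strand. For Cx3cr1, strand alone would not separate Gorasp1, which lies on the same strand.

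C1q is the first component of complement, a protein built from A, B and C chains that 3 neighbouring genes encode. The files place C1qb at chr4:136880129-136886187, C1qc at chr4:136889804-136893065 and C1qa at chr4:136895917-136898803, all on the minus strand of GRCm38, within 18675 bases. The chains were the most abundant members along with Tyrobp, and C1qb led on the gene scale with 9.24 ± 1.81 FPKM over 12 brains (SD). The 250 bases before the RefSeq start of C1qb (chr4:136886201-136886450) and C1qc (chr4:136892915-136893164) are shown 5′ to 3′ as neighbouring starts of genes whose products are assembled together. RefSeq starts C1qb 13 bases before the deposited start, and C1qc 151 bases inside the deposited locus, so that part of the C1qc window lies within the gene as the files place it. The sequences are from RefSeq (GRCm38.p6), and capitals mark GAGGAA or its reverse complement TTCCTC, the core that the myeloid factor PU.1 recognises.
C1qb: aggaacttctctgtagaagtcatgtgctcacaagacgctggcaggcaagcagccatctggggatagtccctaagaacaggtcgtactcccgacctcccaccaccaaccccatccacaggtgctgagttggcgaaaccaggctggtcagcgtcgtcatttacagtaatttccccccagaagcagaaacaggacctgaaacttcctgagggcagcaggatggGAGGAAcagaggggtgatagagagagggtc
C1qc: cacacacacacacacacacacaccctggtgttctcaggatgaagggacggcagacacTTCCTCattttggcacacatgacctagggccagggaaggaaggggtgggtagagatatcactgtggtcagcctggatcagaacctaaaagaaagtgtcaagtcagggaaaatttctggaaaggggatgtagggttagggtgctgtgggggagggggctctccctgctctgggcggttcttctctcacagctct
The motif was searched on both strands of such windows, and 23.3% of all 32851 windows held it. Windows were found for 6 of the 9 members, and those of Aif1, C1qb, C1qc and Trem2 held it. In C1qb it starts 30 bases before the RefSeq start on the coding strand, and in C1qc 193 bases before the RefSeq start on the other strand. A match of 6 letters is a description and is no measure of binding. Spi1, the gene of PU.1, averaged 0.880 ± 0.217 FPKM in PAE and 0.802 ± 0.202 FPKM in SAC (SD, n = 6 each; adjusted p = 0.715 with the lower minimum, limma).

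C1qa was at 2.04, 5.50 and 6.01 FPKM in PAE brains and at 3.92, 4.84 and 5.35 FPKM in SAC brains. Here 4 PAE brains lay above every SAC brain, and ES27-4 lay below all of them. The difference of C1qa was 0.022 ± 0.174 (SE; 95% interval -0.35 to 0.40, adjusted p = 0.949 by limma). C1qb was at 5.26, 10.1 and 11.5 FPKM in PAE brains and at 7.76, 9.63 and 10.01 FPKM in SAC brains. With 3 PAE brains above and 2 below all SAC brains, the PAE values of C1qb were the more spread. Its difference was -0.06 ± 0.15 (SE; 95% interval -0.39 to 0.27, adjusted p = 0.829 by limma). C1qc was at 3.22, 6.66 and 7.32 FPKM in PAE brains and at 5.70, 6.10 and 7.49 FPKM in SAC brains. Its groups overlapped apart from ES27-4, with a difference of -0.04 ± 0.14 (SE; 95% interval -0.35 to 0.26, adjusted p = 0.871 by limma).

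The proportions of the chains were compared within each brain, which needs no scaling between libraries. The C1qa/C1qb ratio was 0.387, 0.525 and 0.862 in PAE brains and 0.395, 0.497 and 0.620 in SAC brains. The highest C1qa/C1qb and C1qc/C1qb ratios were both in the PAE female ES23-7, where C1qb was at 6.87 FPKM while C1qa and C1qc were near the top of their ranges. In that brain the C1qc/C1qb ratio was 1.04, against 0.551 to 0.682 in the other 5 PAE brains and 0.573 to 0.793 in SAC brains. By exact two-sided permutation tests over every assignment of 6 and 6 brains, 0 of the 4 ratios computed had an adjusted p under 0.05 (adjusted over the 4). The Trem2/Tyrobp ratio is given as a value and supports nothing, because the minimum of the table noted above favours a higher Trem2 in PAE. The log2 differences were 0.08 for C1qa/C1qb (p = 0.690, adjusted 0.921), 0.014 for C1qc/C1qb (p = 0.933, adjusted 0.933), 0.07 for C1qa/C1qc (p = 0.569, adjusted 0.921) and 0.22 for Trem2/Tyrobp (p = 0.141, adjusted 0.563) in these exact tests, and 0 of the 4 had an unadjusted p under 0.05.

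TREM2 is a surface receptor that binds lipids and lipoproteins, and TYROBP (DAP12) is the adaptor through which it signals. Trem2 was at 0.377, 0.523 and 0.700 FPKM in PAE brains and at 0.342, 0.446 and 0.497 FPKM in SAC brains. The groups overlapped, with a difference of 0.09 ± 0.06 (SE; 95% interval -0.04 to 0.22, adjusted p = 0.361 by limma with the lower minimum), to which the minimum of the table noted above applies. Tyrobp was at 3.81, 6.89 and 7.16 FPKM in PAE brains and at 5.15, 5.65 and 7.99 FPKM in SAC brains. The highest of its 12 values was in the SAC female SAC26-5 and the lowest in ES27-4, and its difference was 0.03 ± 0.13 (SE; 95% interval -0.25 to 0.32, adjusted p = 0.891 by limma). AIF1 (IBA1) is a calcium-binding protein of the actin cytoskeleton and the usual stain for microglia. Aif1 was at 0.532, 0.949 and 1.46 FPKM in PAE brains and at 0.636, 0.949 and 1.15 FPKM in SAC brains. The medians of Aif1 were equal at this precision, and its difference was 0.03 ± 0.12 (SE; 95% interval -0.22 to 0.28, adjusted p = 0.888 by limma with the lower minimum).

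On the gene scale the members ran, from high to low, C1qb, C1qc, Tyrobp, C1qa, Csf1r, P2ry12, Cx3cr1, Aif1 and Trem2. C1qc was above Tyrobp in 8 of 12 brains, Csf1r above P2ry12 in 9 and P2ry12 above Cx3cr1 in 10, and these pairs did not differ beyond their spread (mean difference within a brain under its SD over brains). The other neighbours did, with the higher gene on top in 11 or 12 brains. The order depends on the length by which a gene's fragments are divided. The exons of all annotated Trem2 transcripts cover 4946 bases, whereas the deposited coding transcripts are 1056 and 1088 bases long. Summed over its transcripts, Trem2 was at 1.55 ± 0.45 FPKM over 12 brains (SD), against 0.483 ± 0.097 FPKM in the gene table. The sums put C1qc first with 9.95 ± 1.79 FPKM, followed by C1qb, Tyrobp, C1qa, P2ry12, Csf1r, Cx3cr1, Aif1 and Trem2. By the same measure C1qc and C1qb (C1qc above in 8 brains), C1qa and P2ry12 (C1qa above in 6), and Aif1 and Trem2 (Aif1 above in 7) did not differ beyond their spread on that scale. Nor did Cx3cr1 and Aif1, although Cx3cr1 was above in 11 of 12 brains. C1qa and C1qb have 1 annotated transcript each and the same value on both scales.

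ES27-4 was the lowest of the 12 brains for 6 of the 9 members, and the lowest for 11.6% of all 12346 genes. Its level was 36.2% of the mean of the other 5 PAE brains for C1qa, 42.7% for Cx3cr1, 47.6% for C1qc, 50.7% for Aif1 and 52.9% for C1qb. Tyrobp, Csf1r and Trem2 were at 57.6%, 61.4% and 67.3%, and P2ry12 was the least lowered at 79.4%. The sum over the 9 genes was 19.8 FPKM in ES27-4, 35.0 to 39.4 FPKM in the remaining PAE brains and 31.1 to 38.2 FPKM in SAC brains. Markers of other cell types moved with it in this brain. Summed border macrophage markers were at 5.27 FPKM, 20.1% of the mean of the other PAE brains, where they spanned 19.7 to 30.6 FPKM, with SAC brains at 19.6 to 26.9 FPKM. Among these, the scavenger receptor Mrc1 was at 0.891 FPKM in ES27-4, 4.01 to 6.20 FPKM in the remaining PAE brains and 3.86 to 5.12 FPKM in SAC brains. ES27-4 was the lowest brain for 6 of the 7 border macrophage markers in the table.

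Endothelial markers summed to 55.5 FPKM in ES27-4, against 76.4 to 86.4 FPKM in the remaining PAE brains and 74.4 to 81.7 FPKM in SAC brains, with ES27-4 the lowest for 10 of 11 markers. Pericyte and meningeal fibroblast markers summed to 55.2 FPKM in it, against 78.8 to 87.6 FPKM in the remaining PAE brains and 71.5 to 95.5 FPKM in SAC brains. ES27-4 was the lowest for 7 of these 10 markers. Erythroid markers were at 2593 FPKM in ES27-4, within the range of both groups, and neuron markers at 1361 FPKM were too. Astrocyte markers summed to 170 FPKM in ES27-4, the lowest of the 12 brains, against 180 to 312 FPKM in the remaining PAE brains and 266 to 367 FPKM in SAC brains. Of 14 blood leukocyte markers, 4 were in the table (Ptprc and Ccr2 were not among them), with a sum of 15.4 FPKM in ES27-4, also the lowest, 18.2 to 23.3 FPKM in the remaining PAE brains and 15.7 to 19.0 FPKM in SAC brains. A separate list of other microglia-enriched genes summed to 52.7 FPKM in ES27-4, 79.3% of the mean of the other PAE brains. The remaining PAE brains had 60.4 to 73.5 FPKM and SAC brains 65.7 to 71.4 FPKM. ES27-4 was the lowest for 10 of these 18 genes. P2ry12, at 1.89 FPKM in ES27-4, lay within the range of both groups. The brain was thus apart from all others in the sum of the microglia genes followed here, with border macrophage, vessel and meningeal markers. Its astrocyte and leukocyte sums lay next to those of ES23-7 and SAC26-7, and its erythroid and neuron sums among those of the others. The part that these cell types have in the low values of ES27-4 was not tested.

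**Figure D2:**
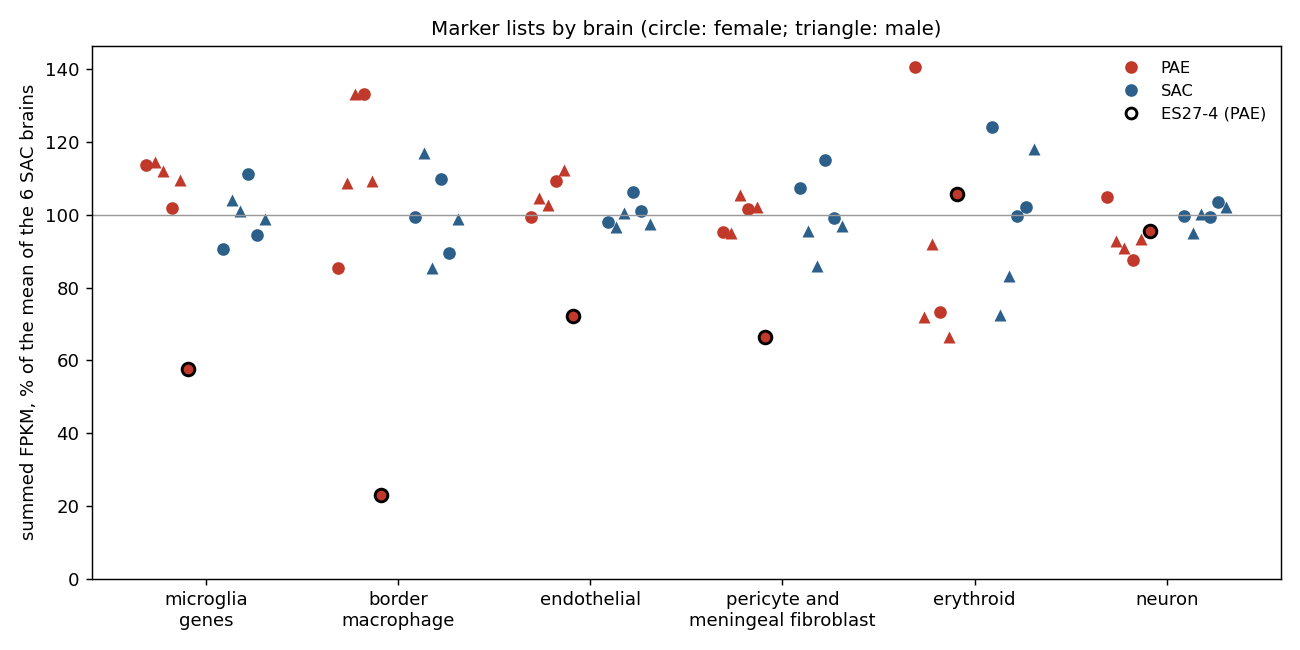
Summed FPKM of 6 marker lists in each brain as a percent of the mean of the 6 SAC brains (vertical axis, from 0), with PAE left of SAC for each list. The outlined brain ES27-4 is far below all others for the microglia genes followed here, border macrophage markers, endothelial markers and pericyte and meningeal fibroblast markers. It is within the range for erythroid and neuron markers.

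The 10 genes whose pattern over the 12 brains was most like that of the members (Pearson's r with the mean standardised level of the 7 tested members) were Prrx1, Susd6, Eva1b, Zfp358, Edn3, Tbx18, Abca9, Slc6a13, Vamp8 and Osr1, with r between 0.911 and 0.935. Prrx1, Tbx18 and Osr1 encode transcription factors of mesenchyme, and Slc6a13 a GABA transporter of the meninges. All 12 libraries share the same processing, and the likeness rested on ES27-4. Slc6a13 was at 0.248 FPKM in that brain, 5.59 to 7.22 FPKM in the remaining PAE brains and 5.03 to 7.64 FPKM in SAC brains. Osr1 was at 0.376 FPKM in ES27-4, 4.79 to 5.25 FPKM in the remaining PAE brains and 3.24 to 5.75 FPKM in SAC brains. Over the 11 other brains, r of the same 10 genes was between 0.292 and 0.719. Among the members themselves, the median Pearson r of the 36 pairs was 0.50 over 12 brains and 0.21 without ES27-4, and the number of pairs above 0.5 was 18 over 12 brains and 5 without it. C1qa and C1qc had the highest r over 12 brains (0.896, Spearman's rho 0.594), and Trem2 and C1qc the highest without ES27-4 (0.737, Spearman's rho 0.764). These correlations are descriptions of brains that share a treatment and a pipeline.

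Without ES27-4 the differences of 7 of the 8 members other than Trem2 were above 0, and that of P2ry12 was -0.0036. In that fit 4.52% of 12372 genes were called and 26.1% had an unadjusted p under 0.05, against 0 members called and 1 with an unadjusted p under 0.05, C1qa. The other 5 PAE brains averaged 5.62 ± 0.35 FPKM (SD, n = 5) for C1qa and the SAC brains 4.74 ± 0.49 FPKM (SD, n = 6), a difference of 0.21 ± 0.07 (SE; 95% interval 0.07 to 0.35, unadjusted p = 0.00815, adjusted p = 0.0780 by limma). Leaving out ES19-4 and SAC12-6 as well gave 0.25 for C1qa with an adjusted p of 0.0509 by limma, in a fit that called 14.8% of genes. Trem2 without ES27-4 differed by 0.12 ± 0.06 (SE; adjusted p = 0.224 by limma with the lower minimum). On the sums of its transcripts, where the remaining PAE brains stood at 1.52 to 2.30 FPKM and SAC brains at 1.09 to 1.55 FPKM, Trem2 differed by 0.36 ± 0.09 without ES27-4 (SE; unadjusted p = 0.00211, adjusted p = 0.0689 by limma, in a fit that called 0.016% of genes). Trem2 is in the gene table through its male PAE level alone, so its higher PAE sums support nothing. With ES27-4 at 0.895 FPKM included, the Trem2 difference on that scale was 0.26 (adjusted p = 0.241 by limma). Leaving out each brain in turn was planned, and ES27-4 was singled out after the values had been seen. The fit without ES27-4, ES19-4 and SAC12-6 was added after that. So were those without ES27-4 at the lower minimum and on transcript sums. No member passed the threshold in any of these fits.

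**Figure D3:**
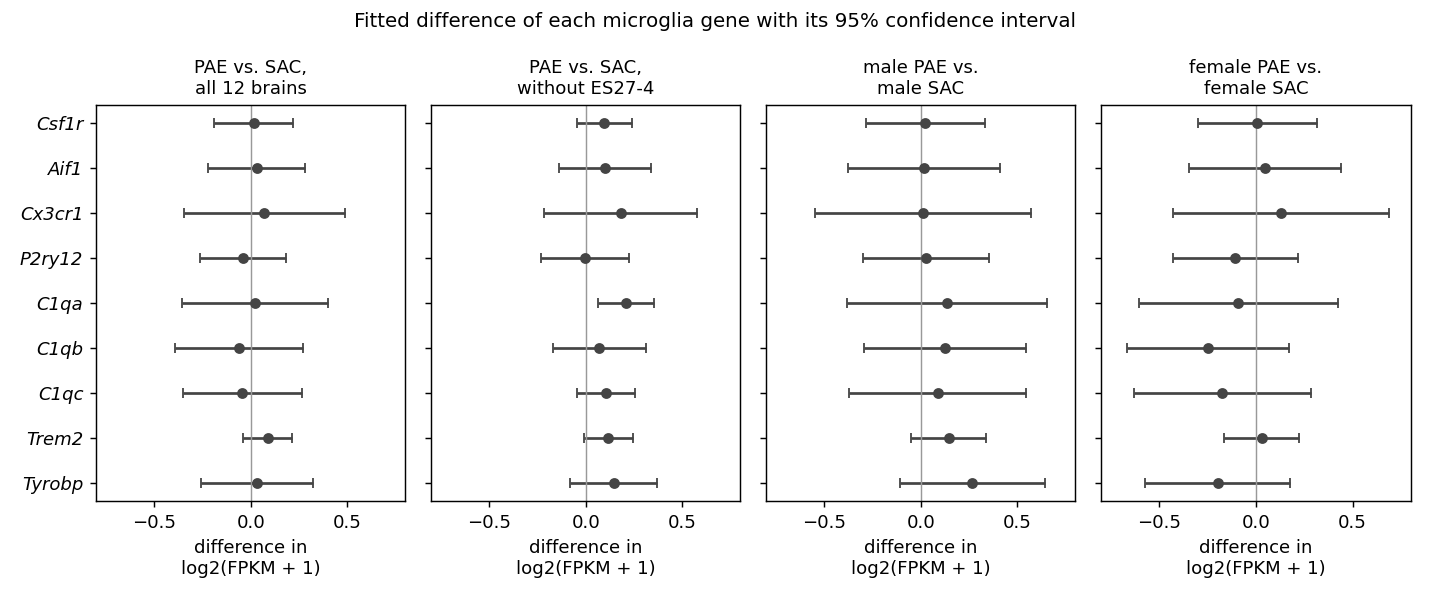
Difference in log2(FPKM + 1) with its 95% confidence interval (horizontal axis) for each of the 9 genes, in PAE vs. SAC with all 12 brains, PAE vs. SAC without ES27-4, male PAE vs. male SAC and female PAE vs. female SAC. Every interval holds 0 except that of C1qa without ES27-4, which runs from 0.07 to 0.35.

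The comparison within each sex asked whether levels differed by treatment in males and in females. Whether the response was the same in both sexes was tested by the interaction given below. In males, 0 of the 9 members were called and 0 had an unadjusted p under 0.05. Of 12346 genes, limma called 0.0324%, and 2381 had an unadjusted p under 0.05. Here and in the comparisons below, Aif1 and Trem2 were tested with the lower minimum. That fit called 2 of 13770 genes higher and 0 lower in males. The differences of all 8 members other than Trem2 were above 0, from 0.0097 for Cx3cr1 to 0.27 for Tyrobp. Tyrobp was at 6.99 ± 0.17 FPKM in male PAE brains and 5.64 ± 0.30 FPKM in male SAC brains (SD, n = 3 each), and the groups did not overlap. C1qa, at 5.67 ± 0.32 FPKM in male PAE brains and 5.07 ± 0.25 FPKM in male SAC brains (SD, n = 3 each), did not overlap either. These 2 of 9 stand beside 32.9% of all genes tested whose male groups did not overlap. The adjusted p was 0.414 for Tyrobp and 0.789 for C1qa by limma, whose fit of 4 groups takes the spread of ES27-4 into the error of every comparison. Without ES27-4, neither was called in males (adjusted p = 0.309 for Tyrobp and 0.378 for C1qa by limma).

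In females, 0 of the 9 members were called and 0 had an unadjusted p under 0.05. Of 12346 genes, 0.0% were called by limma with all brains, and 1763 had an unadjusted p under 0.05. Female differences ran from -0.25 for C1qb to 0.13 for Cx3cr1, and 3 of the 8 members other than Trem2 were above 0. No member's female groups were free of overlap, compared with 14.7% of genes tested. C1qb was at 7.77 ± 3.05 FPKM in female PAE brains and 9.04 ± 1.14 FPKM in female SAC brains (SD, n = 3 each). Its low female PAE values were those of ES27-4 and ES23-7, and that of ES19-4 was 11.2 FPKM. Leaving out ES19-4 gave C1qb a female difference of -0.51 with an adjusted p of 0.0507 by limma, and in that fit 3.76% of genes were called in females, where 0.0% were called with all brains. Without ES27-4 the difference of C1qb was -0.031.

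The interaction of sex and treatment, taken as the male minus the female difference, was called by limma for 0 members and for 0.0081% of genes. No member had an unadjusted p under 0.05 for it, beside 488 of 12346 genes. The largest was that of Tyrobp, 0.47 (95% interval -0.07 to 1.00, unadjusted p = 0.0808, adjusted p = 1.00 by limma). It was 0.65 without ES19-4 (unadjusted p = 0.0103, adjusted p = 0.713 by limma) and 0.28 without ES27-4. That of C1qb was 0.37 with all brains, 0.64 without ES19-4 (unadjusted p = 0.00317, adjusted p = 0.703 by limma) and 0.16 without ES27-4. Females and males over both treatments differed in 0.0324% of genes and in 0 members by limma. Again 0 members had an unadjusted p under 0.05, beside 337 of 12346 genes. Cx3cr1 had the largest such difference, -0.36 (female minus male, 95% interval -0.75 to 0.04, unadjusted p = 0.0706 by limma), with its lowest values in the females SAC12-5 and ES27-4. It was -0.46 without ES23-7 (unadjusted p = 0.0244 by limma) and -0.21 without SAC12-5. Its lowest adjusted p with any 1 brain left out was 0.912 by limma. C1qb was at -0.27 with all brains, -0.40 without ES19-4 (unadjusted p = 0.000673, adjusted p = 0.361 by limma) and -0.16 without ES27-4. C1qa was at -0.28 with all brains, -0.40 without ES23-7 (unadjusted p = 0.0252 by limma) and -0.098 without ES27-4. The lowest adjusted p of C1qa with any 1 brain left out was also 0.912 by limma.

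The transcript table splits each gene into annotated forms, and 17 transcripts of the 9 members were in it. Of these, 14 averaged 0.5 FPKM or more and were tested. limma called 0 of them at an adjusted p under 0.05 and 0 at an unadjusted p under 0.05, where it called 0.0% of 26066 transcripts and gave 13.5% an unadjusted p under 0.05. The forms of several genes varied between brains far more than the genes did. Csf1r-202 held nearly all of Csf1r in 10 brains, whereas in SAC12-7 and SAC26-5 it was listed at 0 and Csf1r-201 was at 3.46 and 3.65 FPKM. Both Csf1r forms have the same coding exons of 2931 bases, and the gene values of these brains were within the range of the others. Cx3cr1-202, which has the same coding exons as Cx3cr1-201, held most of the gene in ES19-4, ES27-4 and SAC26-7 and was listed at 0 in 5 brains. Tyrobp-202 held 47.0% of its gene in ES23-4, 57.3% in SAC26-7 and 42.4% in SAC26-8, and 2.21% to 27.5% in the other 9 brains. P2ry12 was split over 5 forms, of which P2ry12-205 held 38.6% to 70.6%.

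Trem2-202 held 95.9% of Trem2 in ES19-4, 96.6% in ES27-4 and 96.6% in SAC12-5, and was listed at 0 in the other 9 brains, where Trem2-201 held all of it. The forms differ in coding sequence (681 bases in Trem2-201 and 747 bases in Trem2-202). The stretch below, present in Trem2-202 and absent from Trem2-201, is shown because it tells the forms apart. It covers 55 coding bases at chr17:48351691-48351745 (plus strand, GENCODE M21 on GRCm38).
Trem2-202 only: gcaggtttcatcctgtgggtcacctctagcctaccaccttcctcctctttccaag
Both treatments had brains of either form, 2 of 6 PAE brains and 1 of 6 SAC brains with Trem2-202. A transcript listed at 0 in one brain and holding nearly all of its gene in the next is an estimate from short fragments, whose error cannot be given because fragment counts are unknown.

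**Figure D4:**
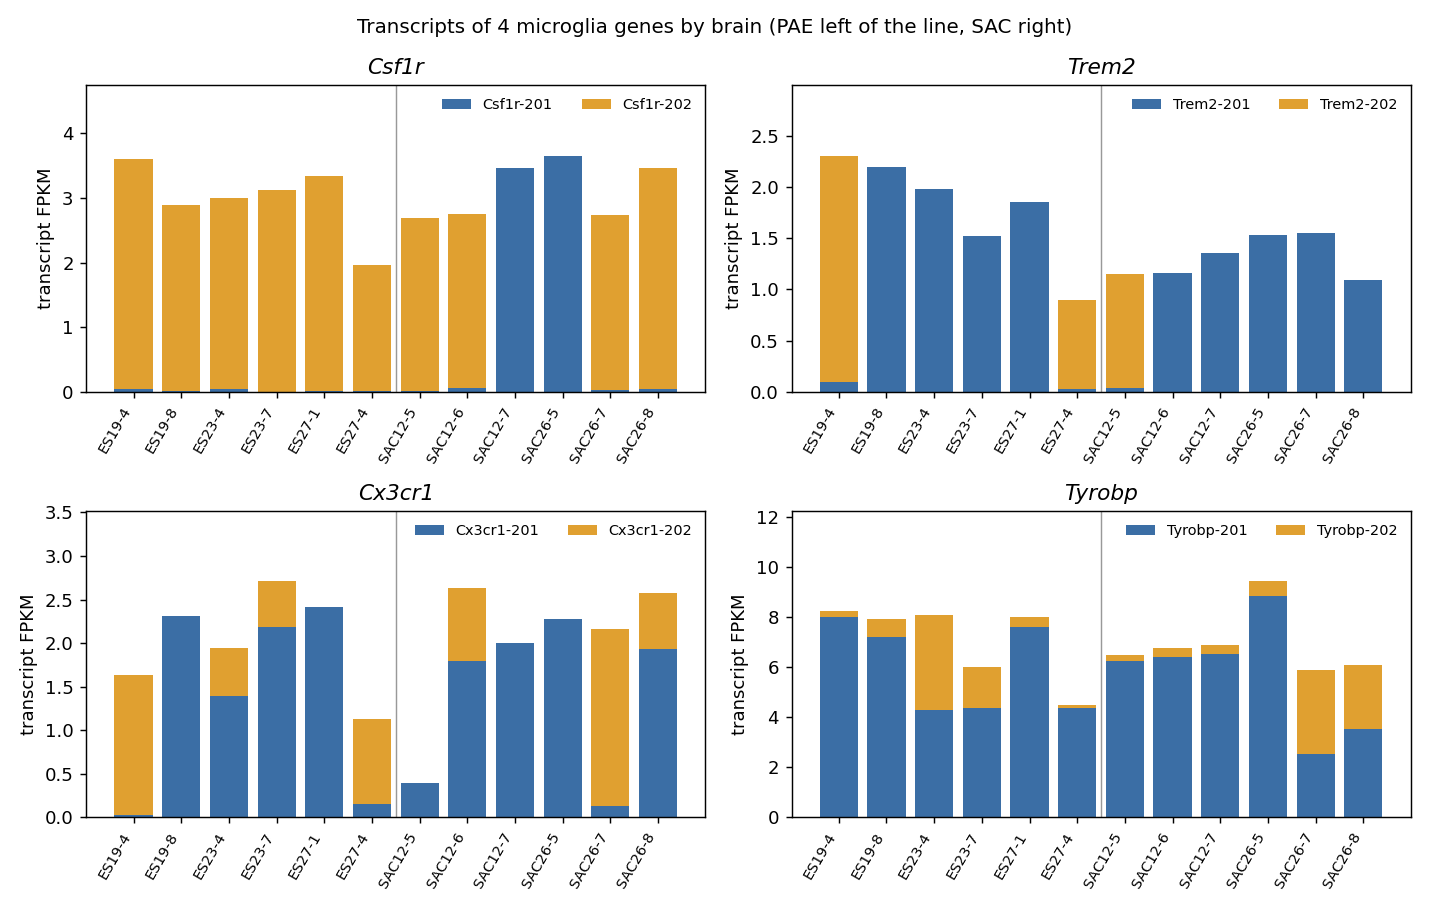
FPKM of the deposited transcripts (vertical axis, stacked) of Csf1r, Trem2, Cx3cr1 and Tyrobp in each brain, with PAE left of the line and SAC right of it. The form that carries the gene changes from brain to brain, as for Csf1r in SAC12-7 and SAC26-5 and for Trem2 in ES19-4, ES27-4 and SAC12-5, while the height of the bars changes less.

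Genes that act with the members were taken from 7 lists of 144 symbols, of which 100 were in the table and 72 were tested. In PAE 3 rose and 3 fell, 8.33% of those tested, beside 9.56% of all genes. Among other microglia-enriched genes, 0 of 10 tested passed (2 at an unadjusted p under 0.05, limma). Sall1, a factor of microglial identity that other neural cells also express, averaged 6.97 ± 1.07 FPKM in PAE and 6.03 ± 0.28 FPKM in SAC (SD, n = 6 each; adjusted p = 0.164, limma). Tmem119, a microglial surface protein, averaged 0.830 ± 0.227 FPKM in PAE and 0.819 ± 0.178 FPKM in SAC (SD, n = 6 each; adjusted p = 0.977 with the lower minimum, limma). Of CSF1R ligands and myeloid transcription factors, 0 of 8 passed (1 at an unadjusted p under 0.05, limma). Of inflammatory mediators and sensors, 14 of 30 were in the table and 0 of 10 tested passed (1 at an unadjusted p under 0.05, limma). Tnf, Il1b and Il6 were not among them.

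In TREM2 and TYROBP signalling 1 of 6 fell. This was Apoe, a lipid carrier that TREM2 binds and that astrocytes make in quantity, with 108 ± 22 FPKM in PAE and 145 ± 11 FPKM in SAC (SD, n = 6 each; log2 difference -0.44, adjusted p = 0.0356 by limma). Of complement components, receptors and regulators, 2 of 13 fell. Csmd3, a transmembrane protein with complement control domains that neurons make, was at 1.44 ± 0.04 FPKM in PAE and 1.94 ± 0.09 FPKM in SAC (SD, n = 6 each; -0.27, adjusted p = 0.0181 by limma). Cd55, an inhibitor of complement convertases, was at 2.28 ± 0.25 FPKM in PAE and 2.96 ± 0.36 FPKM in SAC (SD, n = 6 each; -0.27, adjusted p = 0.0360 by limma). In chemokine and purine genes 2 of 7 rose, the chemokine receptor Cxcr4 (12.3 ± 1.7 FPKM in PAE and 9.10 ± 0.92 FPKM in SAC, SD, n = 6 each; 0.40, adjusted p = 0.0207 by limma) and the adenosine receptor Adora2a (0.33, adjusted p = 0.0365 by limma). Of phagocytosis and lysosome genes, 1 of 18 rose, the protease gene Ctsz (0.23, adjusted p = 0.0457 by limma). All 6 of these genes are also made outside microglia.

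With the mean Hox level of a brain as a covariate no gene of the 12346 was called (0.0%), these 6 included (adjusted p 0.223 to 0.368 by limma). Hox level largely went with treatment, so the loss of these calls says nothing about the 6 genes. Their differences in that fit were -0.28 for Apoe, -0.27 for Csmd3, -0.18 for Cd55, 0.28 for Cxcr4, 0.26 for Adora2a and 0.20 for Ctsz, all in the same direction as before. With the name prefix as a random block 6.82% of genes were called, and Ctsz alone of the 6 was not (adjusted p = 0.0597 by limma). On the means of the 5 prefixes 0.0% of genes were called, and the 6 had adjusted p of 0.229 to 0.247 by limma. With no covariate or block, astrocyte markers fell in PAE in 4 of 10 cases and endothelial markers in 2 of 11, beside 9.56% of all genes called. In either direction, 0 of 9 pericyte and meningeal fibroblast, 0 of 5 border macrophage, 0 of 6 erythroid and 0 of 3 blood leukocyte markers passed (limma, with 0, 0, 0 and 2 at an unadjusted p under 0.05). Leaving out 1 brain kept Csmd3 under the threshold in all 12 cases. Cxcr4 lost its call without ES23-4 or SAC26-8. Apoe lost it without any of ES19-8, ES23-4, ES23-7, SAC12-5, SAC12-6, SAC12-7, SAC26-7 and SAC26-8 (adjusted p up to 0.0856 by limma). Cd55, Adora2a and Ctsz lost theirs without any of ES19-8, ES23-4, ES23-7, ES27-1, SAC12-5, SAC26-7 and SAC26-8 (up to 0.0964 by limma), Cd55 also without ES27-4 or SAC12-6, and Adora2a and Ctsz also without SAC12-7.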

How the data were processed

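Poly-A RNA-seq was measured in 12 whole brains. The authors trimmed reads with cutadapt, checked them with FastQC, mapped them by HISAT2, quantified them by StringTie and Ballgown, and deposited FPKM per gene and per transcript. No tool version is stated in those sources. The paper names the build GRCm28, and positions of 8 of the 9 members match GENCODE M21 on GRCm38. The files' Csf1r limits differ from it. The members and gene lists were chosen with earlier results of these data known. All 9 members are named, and from each other list genes among its 4 smallest p. Csf1, Il34, Spi1 and Tmem119 were added to them after their values had been seen. A gene that this rule would name is not reported here.

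FPKM do not give fragment counts. A search for whole-read steps in 1585 single-transcript genes found at most 34.9% of low values within 0.05 of a whole number, so depth is unknown and no counting error can be given. FPKM were analysed as log2(FPKM + 1) with limma 3.58.1 in R 4.3.3, with moderated variances, a trend on expression and Benjamini-Hochberg adjustment over all genes averaging 1 FPKM or more (0.5 for transcripts). The test was tried on simulated data. PAE and SAC were compared over 12 brains, and the contrasts by sex came from 1 fit of 4 groups. Ratios were tested with exact permutations in Python 3.11.15. Sequences are from RefSeq and GENCODE. RefSeq windows for Csf1r, C1qa and Tyrobp and proteins were not used here. Alternatives were other pseudocounts, minima, scalings, covariates and transcript sums, and leaving out each brain.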

Additional observations from a re-analysis of the deposited data

Results flagged for a closer look

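In groups of 6, the lowest or highest brain was set against the rest by Dixon's criterion, which marks about 1 in 20 groups by chance. The groups share brains, and some are sums or ratios of others, so their marks are not independent. Over 60 groups, 14 values were marked, and 6 of them were in ES27-4. This brain was the lowest PAE brain for C1qa (2.04 FPKM), C1qc (3.22 FPKM), the sum of the 9 microglia genes (19.8 FPKM), inflammatory mediators and sensors (51.2 FPKM), endothelial markers (55.5 FPKM) and pericyte and meningeal fibroblast markers (55.2 FPKM). In PAE, ES19-4 was the highest for astrocyte markers (312 FPKM) and Hox genes (64.8 FPKM), and ES23-7 for the C1qc/C1qb ratio (1.04). In SAC, SAC12-5 was the lowest for Cx3cr1 (0.435 FPKM), SAC26-8 for Trem2 (0.342 FPKM) and SAC12-7 for the sum of chemokine and purine genes (48.9 FPKM). SAC26-5 was the highest SAC brain for C1qc (7.49 FPKM) and Tyrobp (7.99 FPKM). No interaction of sex and treatment was called for a member.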

How the results depend on the processing

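The number of members, member transcripts or ratios called was 0 in each of the 126 alternative counts, and the lowest adjusted p of a single member was 0.0507 (C1qb in females without ES19-4). Of 769 single values under alternatives, 68 changed sign, and none of these was called. For PAE vs. SAC, transcript sums gave Csf1r -0.057 and P2ry12 0.045, and the Hox covariate gave Cx3cr1 -0.091 and C1qb 0.010. Without ES27-4, ES19-4 and SAC12-6, P2ry12 was at 0.024, C1qb at 0.043 and C1qc at 0.095. Without ES27-4, the lower minimum gave C1qb 0.071 and C1qc 0.10, and transcript sums gave P2ry12 0.10, C1qb 0.071 and C1qc 0.11. Transcript sums gave Csf1r -0.049 and Cx3cr1 -0.076 in males, Csf1r -0.064 in females and Aif1 an interaction of 0.0010. Csf1r was at -0.00067 in females with a pseudocount of 0.1, and its interaction was -0.014 with quantile normalization.

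Leaving out 1 brain gave these ranges for values that changed sign. For PAE vs. SAC they were -0.029 to 0.097 for Csf1r, -0.094 to 0.18 for Cx3cr1, -0.11 to 0.018 for P2ry12, -0.032 to 0.21 for C1qa, -0.13 to 0.071 for C1qb, -0.092 to 0.10 for C1qc and -0.0083 to 0.14 for Tyrobp. In males they were -0.026 to 0.099 for Csf1r, -0.082 to 0.12 for Cx3cr1 and -0.098 to 0.16 for P2ry12. In females they were -0.12 to 0.19 for Csf1r, -0.17 to 0.33 for Cx3cr1, -0.32 to 0.28 for C1qa and -0.34 to 0.14 for C1qc. The interaction ranges were -0.17 to 0.15 for Csf1r, -0.32 to 0.18 for Cx3cr1, -0.14 to 0.45 for C1qa and -0.050 to 0.42 for C1qc, and the ranges of female minus male -0.14 to 0.013 for Csf1r and -0.17 to 0.067 for C1qc. The log2 ratios ranged -0.056 to 0.17 for C1qa/C1qb, -0.11 to 0.074 for C1qc/C1qb and -0.0019 to 0.13 for C1qa/C1qc. The cause of these changes was not tested.

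No paired analysis was possible because each name prefix holds only 1 treatment. A random block by prefix called 0 of 7 members and 6.82% of all genes. A fit on the means of the 5 prefixes called 0 of 7 members and 0.0% of all genes, so it said nothing about the members. Depth is unknown from FPKM, so how much of the spread of Aif1 and Trem2, at under 1 FPKM, is counting error cannot be given. With 6 brains a group, the intervals of the members' differences span up to -0.39 and 0.49.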
